A study of Mus musculus with 9 samples.

Results

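The mRNAs of activated CD4+ T cells that received exosomes of ApoE-deficient macrophages were compared with those of T cells that received phosphate-buffered saline (PBS). The members were taken by their treatment labels: 3 libraries with exosomes (called EKO_exo here) and 3 with PBS, together 6 of the 9 libraries of the series. All recipient cells were CD4+ (helper) T cells from spleens of male mice of wild-type (WT) genotype, 6 to 12 weeks old, grown in RPMI-1640 medium. The labels do not give the strain. Every culture was stimulated for 18 h by beads that carry antibodies to CD3 and CD28, in the presence of 5 ng/mL of murine IL-2, a T cell growth factor. In the EKO_exo group the medium also held 2e+09 particles/mL of exosomes from bone marrow-derived macrophages (BMDM) lacking ApoE, and in the PBS group the vehicle alone. The 3 remaining libraries (WT_exo) received the same particle dose from wild-type BMDM, and serve below for a direct test of what differs between the exosome sources. No label says whether the 3 cultures of a group came from separate mice or separate exosome preparations, so p-values measure the spread between cultures.

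A resting T cell that is triggered through its antigen receptor and CD28 grows, copies its DNA and divides. The genes for DNA copying are driven by E2F transcription factors at entry into S phase, while many genes of mitosis are held down through a promoter element called CHR until later in the cycle. Factors such as KLF2 and BACH2 mark the resting state and are lowered on activation. Exosomes are small secreted vesicles that carry lipids, proteins and RNA, and ApoE is an apolipoprotein that macrophages secrete with cholesterol.

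The 6 libraries held 25792975 to 30464334 counts each. The EKO_exo libraries stood apart from the others: they had 19038 to 19518 genes with a count against 20120 to 20373 in PBS, and each was the extreme library on 1 of the first 3 principal components. Genes at 0 counts in 1 library while the other 2 of its group had at least 20 numbered 10, 4 and 12 in EKO_exo replicates 1, 2 and 3 and 0, 2 and 0 in PBS; of these genes, none was called. The cells carried the labelled identity, with Cd4 at 884, 872 and 848 CPM (counts scaled to a common library size) in PBS and 897, 884 and 878 CPM in EKO_exo, and Cd8a under 1 CPM in all 6. Cd8b1, also a marker of CD8 T cells, had 343, 300 and 338 counts in PBS and 282, 244 and 273 in EKO_exo. Summed over 13 T cell markers the level was 4809 to 4926 CPM in PBS and 5035 to 5130 CPM in EKO_exo. Apoe, an endogenous transcript of the wild-type recipients, was at 14.2, 16.9 and 14.1 CPM in PBS and 16.7, 19.0 and 17.6 CPM in EKO_exo and did not pass the test (adjusted p = 0.27).

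Of 14684 genes tested, 746 (5.08%) differed between EKO_exo and PBS at an adjusted p under 0.05 in edgeR's quasi-likelihood test, 325 higher (2.21%) and 421 lower (2.87%) after exosomes. The changes were small. The median log2 fold change was 0.21 for genes called higher and -0.32 for genes called lower. A change of at least 1.5-fold was found for 7 of the higher genes (2.15%) and 53 of the lower genes (12.6%), and one of at least 2-fold for 4 and 15. The 3 EKO_exo libraries and the 3 PBS libraries did not overlap for 723 of the 746 genes, against 3010 of all genes tested (20.5%). Of the called genes, 320 of the higher and 414 of the lower were protein-coding. Without EKO_exo replicates 1 and 3 together, 84 genes were called higher and 165 lower. With 1 library left out, 209 were higher without EKO_exo replicate 1, 154 higher and 245 lower without PBS replicate 1, and 148 higher and 227 lower without PBS replicate 2.

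**Figure D1:**
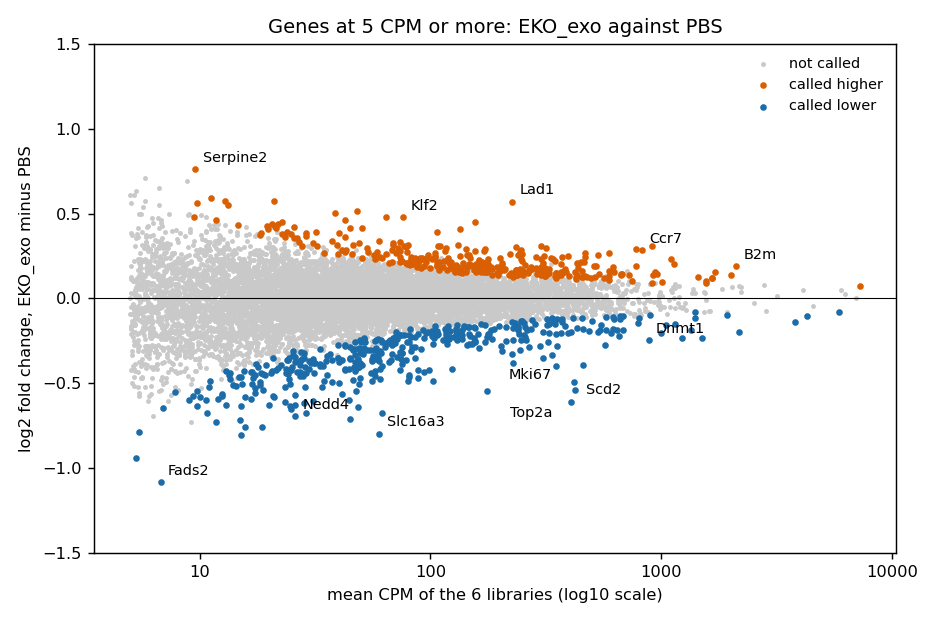
Log2 fold change of EKO_exo against PBS (vertical axis) over the mean level of the 6 libraries in CPM (log10 scale), 1 dot per gene that averaged 5 CPM or more; the 26 called genes under 5 CPM are not shown. Called genes are coloured by direction; Fads2 is the lowest (-1.08) and Serpine2 the highest (0.76).

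The direction of the calls differed with the level of the genes. Between 20 and 100 CPM 92 genes were called higher and 193 lower, while between 100 and 500 CPM 179 were higher and 120 lower. At 500 CPM or more 37 and 34 of 256 genes were called, a share of 27.7%, against 0.236% of the 2960 genes under 1 CPM. The median standard error of the log2 fold change was 0.030 at 500 CPM or more and 0.757 under 1 CPM, so changes of the size seen in abundant genes were not detectable in rare ones. Shares of gene lists below are set against all genes tested, which are not matched for level. The part of level in those differences was not tested.

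**Figure D2:**
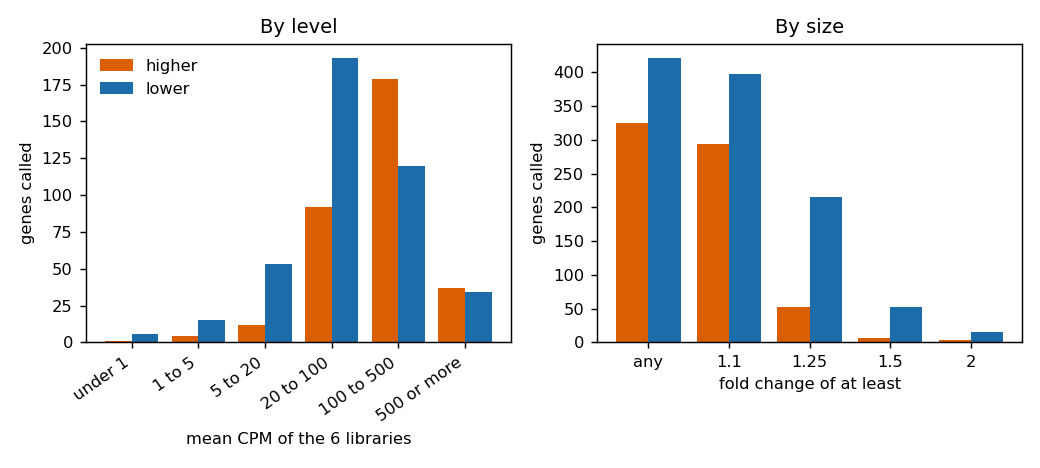
Number of genes called higher and lower in EKO_exo against PBS, by mean level of the 6 libraries in CPM (left) and by least fold change (right). Genes called lower outnumber those called higher between 20 and 100 CPM (193 against 92) and at 1.5-fold or more (53 against 7).

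DNA replication genes fell after exosomes of ApoE-deficient macrophages. Of 43 genes of origin licensing and the replisome that were tested, 31 were lower (72.1%, against 2.87% of all genes) and 0 higher, with a median log2 fold change of -0.26 against 0 over all genes. All 43 had a fold change below 0. Such mRNA levels come from whole cultures, where fewer cycling cells and less of each mRNA per cycling cell cannot be told apart.

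Pole, the catalytic subunit of the leading-strand polymerase (chromosome 5, 110286306 to 110337474), was at 256, 263 and 254 CPM in PBS and 184, 199 and 210.3 CPM in EKO_exo. It fell by 0.38 ± 0.043 (SE) on the log2 scale (adjusted p = 2.08e-06). Lig1, which seals Okazaki fragments, was at 340.4, 352 and 343 CPM in PBS and 248, 277 and 285 CPM in EKO_exo, a log2 fold change of -0.35 ± 0.044 (adjusted p = 6.04e-06). For both genes every EKO_exo library lay below every PBS library, and replicate 1 was the lowest of the EKO_exo group. Clspn, the replication fork checkpoint adaptor claspin, went from 113 ± 7.52 to 84.0 ± 1.17 CPM (SD, n = 3 each; log2 -0.42 ± 0.055, adjusted p = 1.2e-05).

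The replisome genes fell by unequal amounts. The 6 subunits of the MCM helicase ring fell by little, from -0.18 for Mcm6 to -0.26 for Mcm7, and stayed abundant (the mean level of Mcm6 was 685 CPM in PBS and 603 CPM in EKO_exo). Larger falls were found for Dscc1, a subunit of the alternative clamp loader that acts in sister chromatid cohesion (-0.51 ± 0.13 SE), for the helicase activator Mcm10 (-0.45 ± 0.065), for the polymerase alpha catalytic subunit Pola1 (-0.43 ± 0.064) and for the licensing factor Cdc6 (-0.42 ± 0.069). Among the 12 members that did not pass were the sliding clamp Pcna (log2 -0.11, adjusted p = 0.146) and the flap endonuclease Fen1 (log2 -0.10, adjusted p = 0.241). The count of 31 was 16 without EKO_exo replicates 1 and 3, with a median of -0.20. Of the 31 calls, 8 ended in at least 1 of the 6 fits without 1 library, among them that of Dscc1 (EKO_exo 1, PBS 1; up to 0.128), given with the libraries by replicate number and the highest adjusted p.

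The promoters of 4 replisome genes whose level fell are shown to place the E2F core letters near their starts. The sequences are 60 bases from RefSeq windows in GRCm38.p6, with the first window listed for each gene, read 5′ to 3′ along the gene, and the capitals mark the match to TTTCCCGC or TTTGGCGC on either strand:
Pola1: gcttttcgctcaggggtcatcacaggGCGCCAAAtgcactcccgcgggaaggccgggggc
Mcm7: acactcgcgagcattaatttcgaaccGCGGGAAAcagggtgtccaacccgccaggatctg
Cdc6: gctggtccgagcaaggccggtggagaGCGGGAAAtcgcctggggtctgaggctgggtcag
Mcm6: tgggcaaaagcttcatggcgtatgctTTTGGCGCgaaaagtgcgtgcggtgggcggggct
These windows lie at chrX:93632260-93632319 (minus strand), chr5:138172015-138172074 (minus), chr11:98907987-98908046 (plus) and chr1:128359782-128359841 (minus), and the match begins 138, 165, 138 and 110 bases before the RefSeq start of the window. For Mcm7 and Cdc6 that start lies inside the gene span of the GENCODE annotation. In the 250 bases before the start, 6 of 34 replisome genes with a window held such a match (17.6%). The share was 25 of 338 genes called lower (7.4%), 4 of 254 called higher (1.57%), 267 of 10021 tested genes with a window (2.66%) and 366 of 27025 windows in the whole table (1.35%). A match describes letters, not binding.

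Genes of the mitotic spindle, kinetochore and cytokinesis fell as well. Of 49 tested, 36 were lower (73.5%, against 2.87% of all genes) and 0 higher, with a median log2 fold change of -0.43. Kif15, a kinesin of the bipolar spindle (chromosome 9, 122951046 to 123018733), was at 54.3, 58.1 and 54.4 CPM in PBS and 33.2, 33.6 and 35.1 CPM in EKO_exo, and fell by 0.71 ± 0.079 on the log2 scale (adjusted p = 1.66e-06). Its 3 EKO_exo values lay close together. They also lay below every PBS library, which a part of the rule that picked Kif15 required. Cenpe, the kinetochore motor that carries chromosomes to the spindle equator, was at 63.4, 56.6 and 57.5 CPM in PBS and 34.4, 38.2 and 41.4 CPM in EKO_exo, a fall of 0.64 ± 0.083 (adjusted p = 1.31e-05). Kif11, the motor that pushes spindle poles apart, went from 93.5 ± 4.97 to 66.8 ± 2.71 CPM (SD, n = 3 each; log2 -0.48 ± 0.066, adjusted p = 2.55e-05).

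The checkpoint kinase Bub1 fell by 0.61 ± 0.095, the microtubule depolymerase Kif2c by 0.63 ± 0.11 and the Aurora kinase Aurkb by 0.48 ± 0.068 on the log2 scale. Not every mitotic regulator passed: Plk1 had a log2 fold change of -0.25 (adjusted p = 0.223), Cdc20 of -0.16 (adjusted p = 0.381), Cenpa of -0.09 (adjusted p = 0.777) and Pttg1, which encodes securin, of 0.07 (adjusted p = 0.864). Their standard errors were 0.11, 0.091, 0.11 and 0.13, in the same order. Mki67, encoding the proliferation marker Ki-67, was at 497, 486 and 484 CPM in PBS and 342, 341 and 356 CPM in EKO_exo and had the smallest adjusted p of all genes called lower (6.06e-10). Top2a, the topoisomerase of dividing cells, was at 505, 481 and 487 CPM in PBS and 294, 339.8 and 330.2 CPM in EKO_exo (adjusted p = 1.46e-09). The 36 mitotic calls became 22 without PBS replicate 2 and 14 without EKO_exo replicates 1 and 3 (median -0.41), and 19 of the 36 ended in at least 1 of the fits without 1 library.

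Windows from 3 mitotic genes that fell show the CHR letters TTTGAA, in capitals, on either strand:
Kif15: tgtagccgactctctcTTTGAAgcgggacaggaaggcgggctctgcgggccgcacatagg
Kif11: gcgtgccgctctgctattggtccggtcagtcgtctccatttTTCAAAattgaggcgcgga
Espl1: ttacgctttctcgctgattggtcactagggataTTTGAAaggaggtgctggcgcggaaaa
They lie at chr9:122950831-122950890 (plus strand), chr19:37376322-37376381 (plus) and chr15:102296233-102296292 (plus), with the match 234, 19 and 27 bases before the RefSeq start. In the 250 bases before the start the 6 letters were present in 10 of 44 mitotic genes with a window (22.7%). They were also present in 50 of 338 genes called lower (14.8%), 30 of 254 called higher (11.8%), 10.7% of tested genes and 16.3% of all windows in the table, so they were frequent outside this set too.

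Of 34 tested genes of nucleotide synthesis 12 were lower (35.3%, against 2.87% of all genes), with a median of -0.12. In the same list 1 was higher (2.94%, against 2.21%). Rrm2, the regulated subunit of ribonucleotide reductase, was at 219.9, 209 and 196 CPM in PBS and 133, 152 and 142 CPM in EKO_exo (log2 -0.55 ± 0.051, adjusted p = 7.69e-08). Its partner Rrm1 went from 399 ± 11.3 to 303 ± 22.0 CPM (SD, n = 3 each; log2 -0.40 ± 0.042, adjusted p = 5.64e-07), and the thymidylate synthase Tyms from 70.6 ± 1.62 to 50.7 ± 3.37 CPM (log2 -0.48 ± 0.071, adjusted p = 8.81e-05). The member that rose was Samhd1, a phosphohydrolase that breaks down deoxynucleotides, at 1588, 1571 and 1675 CPM in PBS and 1874, 1763 and 1750 CPM in EKO_exo (log2 0.16 ± 0.028, adjusted p = 0.000588); it was chosen after its value was seen. Enzymes of purine and pyrimidine synthesis were on both sides of the threshold. Pfas (log2 -0.23, adjusted p = 0.000801), Gmps (-0.21, 0.00899), Gart (-0.12, 0.0438) and the pyrimidine enzyme Cad (-0.11, 0.0203) fell, while Ppat, the first enzyme of purine synthesis, had a log2 fold change of 0.02 (adjusted p = 0.857) and Umps of -0.04 (adjusted p = 0.733). The 12 calls became 5 without EKO_exo replicate 1, 6 without PBS replicate 1, 6 without PBS replicate 2 and 4 without EKO_exo replicates 1 and 3 (median -0.10), and 7 of the 13 called members, Cad, Gart and Gmps among them, lost their call in at least 1 of the fits without 1 library.

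Genes of homologous recombination and the Fanconi pathway repair broken and crosslinked DNA during replication. Of 31 tested, 16 were lower (51.6%, against 2.87% of all genes) and 0 higher, with a median of -0.32. Fancd2, the central Fanconi protein (chromosome 6, 113531682 to 113597017), was at 35.1, 38.5 and 33.3 CPM in PBS and 21.0, 22.6 and 23.2 CPM in EKO_exo and fell by 0.68 ± 0.091 on the log2 scale (adjusted p = 2.25e-05). Rad54l, a motor of strand exchange, was at 59.3, 49.6 and 51.9 CPM in PBS and 30.9, 34.9 and 40.2 CPM in EKO_exo, a fall of 0.60 ± 0.094 (adjusted p = 0.000145). Groups did not overlap for either gene. Brca1 went from 84.2 ± 2.34 to 62.9 ± 2.06 CPM (SD, n = 3 each; log2 -0.42 ± 0.061, adjusted p = 5.82e-05), and Brca2, at a log2 fold change of -0.33 ± 0.082, was called as well. Of the Fanconi core complex, Fanca fell (log2 -0.36 ± 0.080, adjusted p = 0.00608), with the call lost without PBS replicate 2 (0.0919), while Fancg (log2 -0.12, adjusted p = 0.669), Fance (-0.05, 0.837) and Fancc (0.02, 0.966) did not pass. The 16 calls became 10 without PBS replicate 1, 9 without PBS replicate 2 and 5 without EKO_exo replicates 1 and 3 (median -0.27). Of the 16 calls, 8 ended in at least 1 of the fits without 1 library, among them Brca2 (EKO_exo 1, PBS 1 or 2; up to 0.11).

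Among 27 genes of DNA methylation and Polycomb repression 3 were lower and 3 higher, with a median of -0.04. Each share was 11.1%, against 2.87% lower and 2.21% higher over all genes. The lower ones copy methylation and chromatin behind the fork. Dnmt1, the maintenance methyltransferase, was at 952, 960.1 and 961 CPM in PBS and 774, 821 and 831 CPM in EKO_exo (log2 -0.24 ± 0.029, adjusted p = 4.21e-06). Uhrf1, which brings DNMT1 to newly copied DNA, went from 388 ± 8.55 to 319.6 ± 4.88 CPM (SD, n = 3 each; log2 -0.28 ± 0.034, adjusted p = 4.21e-06), and the histone chaperone Rbbp4 from 329.8 ± 6.01 to 288 ± 7.73 CPM (log2 -0.20 ± 0.038, adjusted p = 0.00157). Phc2, Cbx7 and the dioxygenase Tet3 rose by 0.19, 0.19 and 0.14 on the log2 scale. The de novo methyltransferase Dnmt3a (log2 -0.01, adjusted p = 0.904) and the Polycomb methyltransferase Ezh2 (-0.07, 0.25) did not pass. Without EKO_exo replicates 1 and 3, Rbbp4 was no longer called (adjusted p = 0.0949). With 1 library removed, calls also ended for Phc2 (EKO_exo 2 or 3, PBS 1 or 2; up to 0.0621), Cbx7 (EKO_exo 2, PBS 1 or 2; up to 0.146) and Tet3 (EKO_exo 1, PBS 1 or 2; up to 0.161).

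Of 25 tubulins and microtubule regulators 3 were lower (12%, against 2.87% of all genes) and 0 higher, with a median of -0.04. Tubb5, a beta tubulin, was at 2345, 2335 and 2256 CPM in PBS and 1943, 2058 and 2051 CPM in EKO_exo (log2 -0.20 ± 0.025, adjusted p = 6.66e-06). Tubgcp2, of the gamma tubulin complex, had a log2 fold change of -0.21 ± 0.059 (adjusted p = 0.0293), and the tubulin-binding stathmin Stmn1 of -0.44 ± 0.13 (adjusted p = 0.0361), with overlapping groups. Tubgcp2 was no longer called on leaving out EKO_exo replicate 1 or 2 or PBS replicate 1 or 2 (adjusted p 0.0604 to 0.166), and Stmn1 without EKO_exo replicate 1 or 3, or without PBS replicate 1 or 3 (0.0881 to 0.244). Tubulin genes share sequence, and how the authors' counting treated reads common to several is not given in the sources used here.

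Of 44 tested genes for phospholipids and unsaturated fatty acids 4 were lower (9.09%, against 2.87% of all genes) and 0 higher, with a median of -0.065. The 4 were Scd2, Fads2, Fads1 and Scd1, which encode fatty acid desaturases. That shared function was seen after the calls and was not tested. Scd2, a stearoyl-CoA desaturase (chromosome 19, 44293674 to 44306864), was at 519.6, 511 and 473 CPM in PBS and 316, 361 and 355 CPM in EKO_exo (log2 -0.54 ± 0.042, adjusted p = 1.64e-09). Fads2, the first desaturase of polyunsaturated fatty acid synthesis, was at 10.0, 10.3 and 7.31 CPM in PBS and 4.06, 3.80 and 5.15 CPM in EKO_exo (log2 -1.08 ± 0.22, adjusted p = 0.00258). Groups did not overlap for either, which a part of the rule that picked them required. Fads1, which acts after Fads2, went from 50.9 ± 2.32 to 41.2 ± 1.93 CPM (SD, n = 3 each; log2 -0.31 ± 0.072, adjusted p = 0.00996), and the call was lost without PBS replicate 2 (adjusted p = 0.0887). Scd1, at 3.10 CPM in PBS and 1.16 CPM in EKO_exo, had a log2 fold change of -1.42 ± 0.39. Among genes named here, calls that ended without 1 library included Scd1 (EKO_exo 2 or 3, PBS 1, 2 or 3; up to 0.128). The elongase Elovl6 had a log2 fold change of -0.26 (adjusted p = 0.0542). Acyltransferases of phospholipid synthesis such as Lpcat3 (-0.16, adjusted p = 0.236) and Gpat4 (-0.004, 0.978) did not pass.

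**Figure D3:**
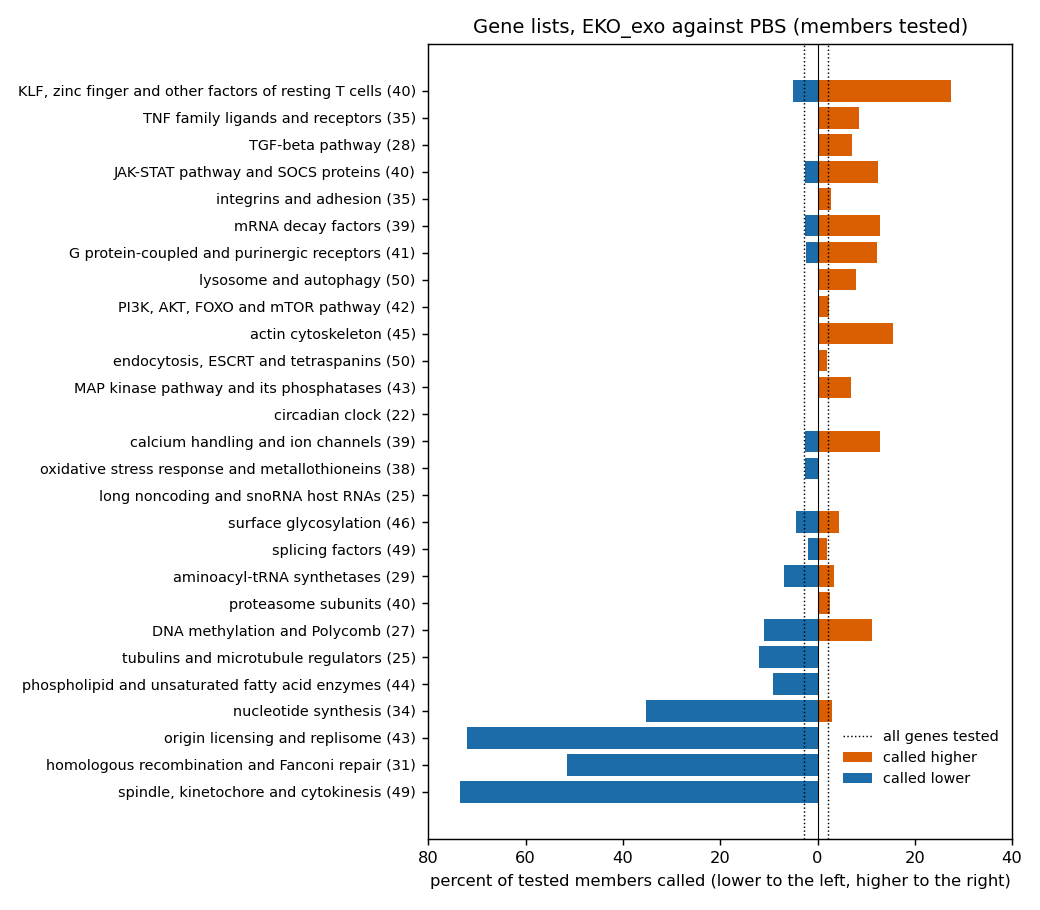
Share of tested members called lower (to the left) and higher (to the right) in EKO_exo against PBS for 27 gene lists, sorted by median log2 fold change, with the number of members tested in brackets; dotted lines mark the shares over all genes tested (2.87% lower, 2.21% higher). Spindle and replisome genes stand at 73.5% and 72.1% lower, and factors of resting T cells at 27.5% higher.

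Of 40 tested KLF, zinc finger and other regulators of the resting T cell 11 were higher (27.5%, against 2.21% of all genes) and 2 lower, with a median log2 fold change of 0.09. Klf2, which drives genes of T cell trafficking and quiescence (chromosome 8, 72319033 to 72321656), was at 62.2, 62.5 and 66.1 CPM in PBS and 94.1, 85.7 and 86.0 CPM in EKO_exo, a rise of 0.48 ± 0.058 on the log2 scale (adjusted p = 4.21e-06). Bcl11b, the zinc finger factor that keeps T cell identity (chromosome 12, 107910403 to 108003602), was at 418, 417 and 435 CPM in PBS and 508, 499.5 and 522 CPM in EKO_exo (0.27 ± 0.032, adjusted p = 4.15e-06). Both genes separated the groups fully, as did 723 of the 746 called genes. A part of the rule that picked Bcl11b required this. Klf3, a repressor related to Klf2, went from 53.4 ± 4.11 to 74.6 ± 7.55 CPM (SD, n = 3 each; 0.48 ± 0.075, adjusted p = 0.000137; 0.0705 without EKO_exo replicates 1 and 3).

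Others in this set that rose were Slfn2, a Schlafen protein needed for T cell quiescence (log2 0.24 ± 0.035), its relative Slfn1 (0.45 ± 0.070), Tcf7, which encodes TCF-1 (0.14 ± 0.028), Foxp1 (0.14 ± 0.034), the ubiquitin ligase Cblb (0.13 ± 0.035) and Bach2 (0.12 ± 0.036). The 2 members that fell were Nedd4, a ubiquitin ligase, and Satb1, a chromatin organiser. Nedd4 was at 32.3, 31.1 and 32.8 CPM in PBS and 17.7, 19.4 and 22.3 CPM in EKO_exo (log2 -0.69 ± 0.1, adjusted p = 5.64e-05). Satb1 was at 1429, 1426 and 1447 CPM in PBS and 1297, 1219 and 1257 CPM in EKO_exo (log2 -0.19 ± 0.028, adjusted p = 9.06e-05). Other factors in this set did not pass, among them Lef1 (log2 0.09, adjusted p = 0.114) and Ikzf1 (0.06, 0.329). The 11 rises became 6 without PBS replicate 2 and 4 without EKO_exo replicates 1 and 3 (median 0.06). Removing 1 library also ended the calls of Foxp1 (EKO_exo 3, PBS 1 or 2; up to 0.0887), Cblb (EKO_exo 1, PBS 1, 2 or 3; up to 0.176) and Bach2 (EKO_exo 1 or 3, PBS 1, 2 or 3; up to 0.203).

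**Figure D4:**
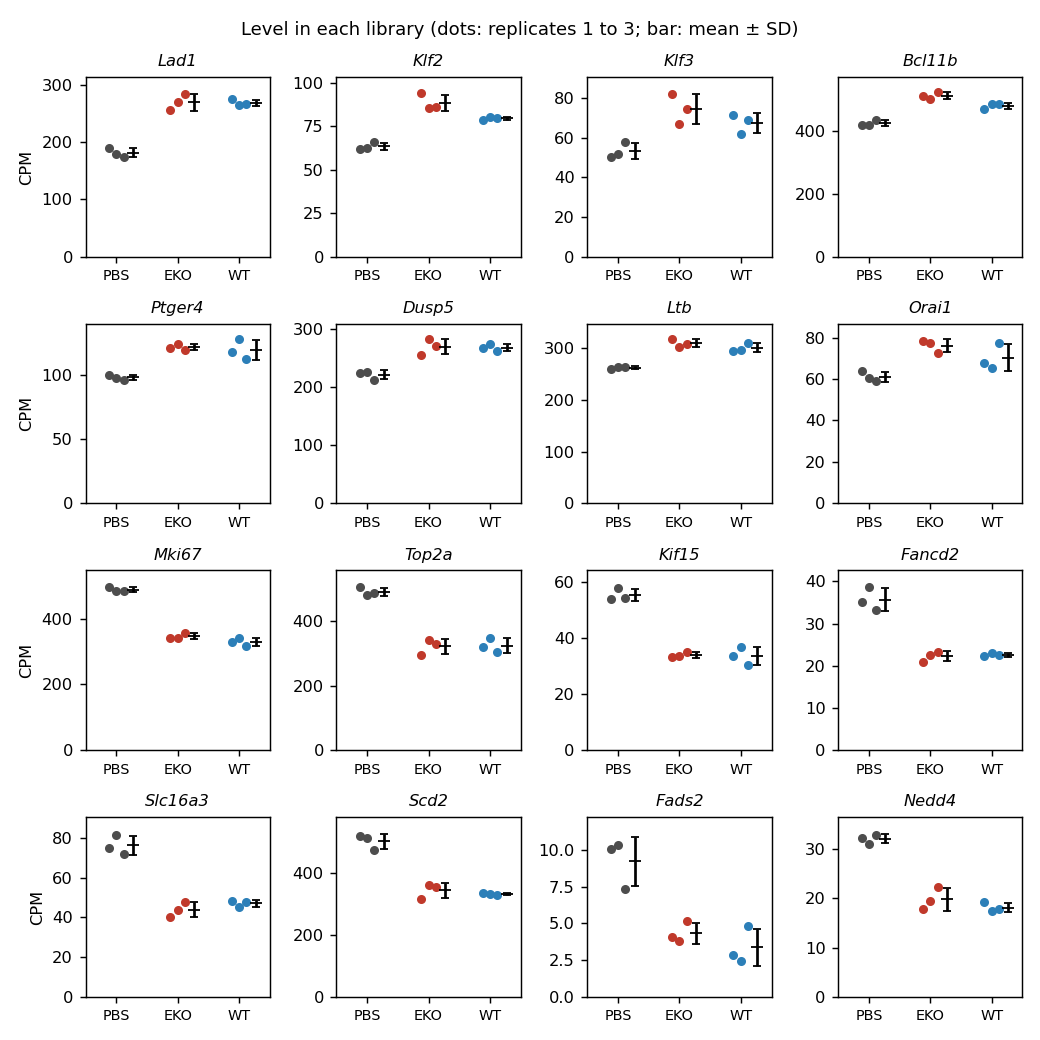
Level in CPM of 16 genes in each library of the PBS, EKO_exo and WT_exo groups (dots, replicates 1 to 3) with the group mean and SD (bars). In all 16 panels every EKO_exo dot lies on the same side of every PBS dot, as in Lad1 (174 to 190 CPM in PBS, 255 to 284 CPM in EKO_exo). The 16 genes were picked from the called genes, and for several, Lad1 among them, the naming rule required groups without overlap. The separation is thus not a result of its own.

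Of 39 mRNA decay factors 5 were higher (12.8%, against 2.21% of all genes), 1 was lower and 33 were not called, with a median of 0.05. The share over all genes includes rare genes, of which few were called. Between 100 and 500 CPM, the level of Btg1, Zfp36l1 and Zfp36l2, 179 of 2319 genes were called higher. Btg1, an antiproliferative adaptor of the deadenylase complex, was at 190.3, 187 and 192 CPM in PBS and 218, 224 and 216 CPM in EKO_exo (log2 0.21 ± 0.039, adjusted p = 0.000962). Zfp36l1 and Zfp36l2, which bind AU-rich messages, went from 342 ± 14.9 to 393 ± 20.6 CPM (log2 0.20 ± 0.039, adjusted p = 0.0013) and from 253 ± 10.2 to 284 ± 6.60 CPM (0.16 ± 0.037, 0.00797; SD, n = 3 each). Btg2 and Tob2 rose by 0.21 and 0.14, and the decapping enzyme Dcp2 fell by 0.17 on the log2 scale. Zfp36l2 lost its call without PBS replicate 1 (adjusted p = 0.0842), and Zfp36l1 without EKO_exo replicates 1 and 3 together (0.293). With 1 library removed, calls also ended for Btg2 (EKO_exo 1, PBS 1, 2 or 3; up to 0.143), Tob2 (EKO_exo 1, 2 or 3, PBS 1 or 3; up to 0.202) and Dcp2 (EKO_exo 1 or 3, PBS 1 or 2; up to 0.0898).

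Signalling lists held a few rises each. Of 43 genes of the MAP kinase pathway 3 were higher (6.98%, against 2.21% of all genes) and 0 lower (median 0.02). All 3 were phosphatases of MAP kinases. Dusp5, which holds ERK in the nucleus, was at 226, 227 and 213 CPM in PBS and 257, 283 and 271 CPM in EKO_exo (log2 0.28 ± 0.041, adjusted p = 5.45e-05), with no overlap. Dusp2 rose by 0.21 ± 0.056 (adjusted p = 0.0247) and Dusp7 by 0.20 ± 0.056 (0.0317). Dusp2 was no longer called on leaving out EKO_exo replicate 2 or 3 or PBS replicate 1 or 2 (adjusted p 0.0547 to 0.164), and Dusp7 without any 1 of EKO_exo replicates 2 and 3 and PBS replicates 1 to 3 (0.068 to 0.18).

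Of 40 genes of the JAK-STAT pathway 5 were higher (12.5%, against 2.21% of all genes) and 1 lower, with a median of 0.07. Stat5a, which acts below the IL-2 receptor, was at 331, 325 and 343 CPM in PBS and 371, 365 and 375 CPM in EKO_exo. It rose by 0.15 ± 0.036 on the log2 scale (adjusted p = 0.00975), as did the receptor chains Il2rg (0.14) and Ifnar1 (0.17) and the feedback inhibitor Socs1 (0.17). The kinase Jak2 fell by 0.15 ± 0.035 (adjusted p = 0.01). Stat5a lost its call without PBS replicate 1 or 2 (adjusted p = 0.0512 and 0.085) and Jak2 without PBS replicate 3 (0.0579). Among genes named here, calls that ended without 1 library included Il2rg (EKO_exo 3, PBS 1 or 3; up to 0.149), Ifnar1 (EKO_exo 1 or 3, PBS 1 or 2; up to 0.177) and Socs1 (EKO_exo 2 or 3, PBS 1 or 2; up to 0.213).

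Of 35 TNF family ligands and receptors 3 were higher (8.57%, against 2.21% of all genes) and 0 lower (median 0.08). All 3 were ligands. Ltb, which encodes lymphotoxin beta, a signal for lymphoid tissue (chromosome 17, 35194439 to 35196320), was at 259, 264 and 263 CPM in PBS and 318, 302 and 308 CPM in EKO_exo (log2 0.24 ± 0.036, adjusted p = 9.06e-05). Tnfsf11, which encodes RANKL, went from 16.7 ± 2.27 to 22.4 ± 1.17 CPM (SD, n = 3 each; log2 0.43 ± 0.11, adjusted p = 0.0193), and Tnfsf8, the CD30 ligand, from 226 ± 4.83 to 249 ± 10.0 CPM (0.14 ± 0.04, 0.0373). The receptors Tnfrsf4 (OX40, log2 0.07, adjusted p = 0.243) and Tnfrsf9 (4-1BB, 0.02, 0.912) did not pass. Tnfsf11 was no longer called on leaving out EKO_exo replicate 1 or PBS replicate 2 or 3 (adjusted p 0.0572 to 0.138), and Tnfsf8 in 5 of the 6 fits without 1 library (0.0533 to 0.179).

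Of 41 G protein-coupled and purinergic receptors with their regulators 5 were higher (12.2%, against 2.21% of all genes) and 1 lower (median 0.05). Ptger4, the EP4 receptor of prostaglandin E, was at 99.9, 97.5 and 96.1 CPM in PBS and 121, 124 and 119 CPM in EKO_exo (log2 0.31 ± 0.051, adjusted p = 0.00028), with no overlap. S1pr1, the sphingosine phosphate receptor by which T cells leave lymphoid organs, was at 62.6, 58.5 and 62.7 CPM in PBS and 78.6, 70.0 and 75.6 CPM in EKO_exo (0.29 ± 0.069, adjusted p = 0.0112). Gpr83, a receptor of regulatory T cells, rose by 0.19 ± 0.045 (adjusted p = 0.0109), and Adgre5 and Rgs16 rose by 0.19 and 0.31. The ATP and ADP receptor P2ry1 fell from 3.87 to 1.75 CPM (log2 -1.15 ± 0.33). S1pr1 was no longer called on leaving out EKO_exo replicate 1 or PBS replicate 2 (adjusted p = 0.0598 and 0.0943), and Gpr83 without EKO_exo replicate 2, or without PBS replicate 1 (0.0637 and 0.115). Removing 1 library also ended the calls of Adgre5 (EKO_exo 1, PBS 1 or 3; up to 0.0926), Rgs16 (EKO_exo 1, 2 or 3, PBS 1, 2 or 3; up to 0.224) and P2ry1 (EKO_exo 1, PBS 1, 2 or 3; up to 0.17).

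Of 39 genes of calcium handling and ion channels 5 were higher (12.8%, against 2.21% of all genes) and 1 lower (median 0.01). Orai1, the pore of the store-operated calcium channel, was at 63.7, 60.3 and 59.2 CPM in PBS and 78.4, 77.2 and 72.4 CPM in EKO_exo (log2 0.32 ± 0.066, adjusted p = 0.00373). S100a10, an annexin partner, went from 65.1 ± 3.50 to 82.2 ± 4.33 CPM (SD, n = 3 each; 0.34 ± 0.06, adjusted p = 0.000601). Atp2b4, a pump that removes calcium across the plasma membrane, was at 76.2, 75.1 and 76.9 CPM in PBS and 63.0, 60.9 and 53.6 CPM in EKO_exo and fell by 0.36 ± 0.066 (adjusted p = 0.000772). The potassium channels Kcnn4 and Kcna3 rose by 0.15 and 0.31 and the channel inhibitor Saraf by 0.17. The calcium sensor Stim1 had a log2 fold change of -0.02 (adjusted p = 0.921). S100a10 was not called without EKO_exo replicates 1 and 3 (0.0834). With 1 library removed, calls also ended for Kcnn4 (EKO_exo 3, PBS 3; up to 0.0853), Kcna3 (EKO_exo 1 or 2, PBS 1 or 2; up to 0.139) and Saraf (EKO_exo 1, PBS 2 or 3; up to 0.114).

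Of 45 actin cytoskeleton genes 7 were higher (15.6%, against 2.21% of all genes) and 0 lower, with a median of 0.03. The share over all genes includes rare genes, of which few were called. Between 100 and 500 CPM, the level of Lsp1, Vasp and Evl, 179 of 2319 genes were called higher. At 500 CPM or more, the level of Actb, 37 of 256 genes were. Lsp1, an actin-binding protein of leukocytes, was at 339, 344 and 339.7 CPM in PBS and 412, 384 and 416 CPM in EKO_exo (log2 0.25 ± 0.035, adjusted p = 5.64e-05). Vasp and Evl, which lengthen actin filaments, rose by 0.16 ± 0.032 (adjusted p = 0.00316) and 0.18 ± 0.038 (0.00413). Actb, the beta actin gene used as a constant reference in many assays, was at 7215, 7089 and 6919 CPM in PBS and 7224, 7442 and 7663 CPM in EKO_exo. Its rise of 0.07 ± 0.020 was called (adjusted p = 0.0307), although the lowest EKO_exo library lay barely above the highest PBS library. Cofilin (Cfl1, log2 0.01, adjusted p = 0.883) and thymosin beta 4 (Tmsb4x, -0.01, 0.879) did not pass. Without EKO_exo replicates 1 and 3, 1 of the 7 was called and Vasp and Evl were not (adjusted p = 0.123 and 0.428). Of the 7 calls, 4 ended in at least 1 of the fits without 1 library, among them Actb (EKO_exo 2 or 3, PBS 2 or 3; up to 0.179).

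Of 50 lysosome and autophagy genes 4 were higher (8%, against 2.21% of all genes) and 0 lower (median 0.04). Calcoco1, a receptor for autophagy of endoplasmic reticulum, was at 37.2, 40.3 and 37.7 CPM in PBS and 56.1, 49.3 and 48.0 CPM in EKO_exo (log2 0.41 ± 0.075, adjusted p = 0.000733). Laptm5, a lysosomal membrane protein that lowers surface T cell receptor, rose by 0.14 ± 0.029 (adjusted p = 0.00384), Atg2a, a lipid transfer protein, by 0.24 ± 0.06 (0.0163) and the kinase Ulk1 by 0.24. Of 46 genes of surface glycosylation 2 were higher and 2 lower (4.35% each, against 2.21% and 2.87% of all genes, median 0.01). Ugcg, the glucosylceramide synthase, went from 183 ± 11.4 to 216 ± 8.46 CPM (SD, n = 3 each; log2 0.24 ± 0.045, adjusted p = 0.00126). The sialic acid hydroxylase Cmah rose by 0.34 ± 0.082 (adjusted p = 0.0113) and the mucin-type transferase Galnt6 fell by 0.14 ± 0.038 (0.0353). Among these, calls were lost without 1 library for Atg2a (EKO_exo replicate 1 or 2, PBS replicate 1 or 2; adjusted p 0.052 to 0.137), Cmah (EKO_exo replicate 1, or PBS replicate 1 or 2; 0.0604 to 0.122) and Galnt6 (EKO_exo replicate 1 or 2, PBS replicate 1 or 2; 0.0802 to 0.24). Without EKO_exo replicates 1 and 3, adjusted p was 0.0581 for Calcoco1 and 0.301 for Laptm5. Removing 1 library also ended the calls of Ulk1 (EKO_exo 1, PBS 1 or 2; up to 0.107).

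Other sets held few calls. Over all genes tested 2.21% were higher and 2.87% lower. Of 29 aminoacyl-tRNA synthetases Wars rose (0.14 ± 0.042, adjusted p = 0.0405) and Dars (-0.17 ± 0.045, 0.0222) and Eprs (-0.11 ± 0.033, 0.0478) fell, and each lost its call when single libraries were left out (in 4, 3 and 5 of 6 fits, with adjusted p up to 0.243, 0.134 and 0.172). The synthetases were thus 3.45% higher and 6.9% lower. Of 49 splicing factors 1 was higher (Ddx17) and 1 lower (Hnrnpab), 2.04% each. Of 40 proteasome genes 1 was higher (2.5%; Psme2, an activator subunit). Of 42 genes of the PI3K and mTOR pathway 1 was higher (2.38%; Pik3cd). Of 35 integrin and adhesion genes 1 was higher (2.86%; Cd5), and of 50 genes of endocytosis and ESCRT 1 was higher (2%; Vps28). Of 38 genes of the oxidative stress response 1 was lower (2.63%; Mt1, a metallothionein). From splicing factors to oxidative stress genes, these shares lay near those over all genes. Of 28 genes of the TGF-beta pathway 2 were higher (7.14%), the corepressor Tgif1 (0.22) and the protease Furin (0.14). With 1 library removed, calls also ended for Ddx17 (EKO_exo 1 or 2, PBS 1 or 2; up to 0.172), Psme2 (EKO_exo 1, PBS 2; up to 0.0833), Cd5 (EKO_exo 1, 2 or 3, PBS 1 or 2; up to 0.245), Vps28 (EKO_exo 1 or 2, PBS 2; up to 0.192), Mt1 (EKO_exo 1 or 2, PBS 1 or 2; up to 0.315), Tgif1 (EKO_exo 1, PBS 1, 2 or 3; up to 0.129) and Furin (EKO_exo 3, PBS 1 or 3; up to 0.14). In edgeR's test 0 of 22 circadian clock genes were called (8 at an unadjusted p under 0.05, 0 called by DESeq2; median 0.02) and 0 of 25 long noncoding and snoRNA host RNAs (2 at an unadjusted p under 0.05, 1 called by DESeq2; median 0.01).

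The 10 largest rises among the called genes that averaged 5 CPM or more, with groups that did not overlap, ran from 0.48 to 0.76 on the log2 scale. Lad1, which encodes ladinin, a basement membrane and actin-associated protein (chromosome 1, 135818598 to 135833342), had the smallest adjusted p of the genes called higher (1.34e-09). It was at 189.9, 179.8 and 174 CPM in PBS and 255, 269 and 284 CPM in EKO_exo (log2 0.57 ± 0.043). The other large rises were in genes of lower level. Serpine2, a secreted inhibitor of thrombin and plasmin-type proteases, was at 7.71, 7.40 and 6.23 CPM in PBS and 16.5, 10.2 and 9.50 CPM in EKO_exo (log2 0.76 ± 0.18, adjusted p = 0.00899), so replicate 1 stood far above the other 2 EKO_exo libraries. Its call did not hold on leaving out EKO_exo replicate 1 (adjusted p = 0.125) or PBS replicate 3 (0.0576). Phlda1, a gene induced by T cell receptor signals, was at 15.1, 17.6 and 18.0 CPM in PBS and 25.3, 24.2 and 25.9 CPM in EKO_exo (0.57 ± 0.1, adjusted p = 0.000609), with little spread within either group. Tbc1d30, a Rab GTPase activator, went from 31.9 ± 1.06 to 45.1 ± 1.77 CPM (SD, n = 3 each; 0.50 ± 0.076, adjusted p = 0.000103), and Ccdc141 from 39.5 ± 3.81 to 56.4 ± 7.53 CPM (0.52 ± 0.085, 0.000263).

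The remaining large rises were Arhgef4, a guanine nucleotide exchange factor (log2 0.59 ± 0.15, adjusted p = 0.02), Mturn (0.58 ± 0.15, 0.0182), the Mediator subunit Med29 (0.56 ± 0.14, 0.0143) and the cell adhesion molecule L1cam (0.55 ± 0.13, 0.00726). Each lost its call when 1 library was left out: Arhgef4 without EKO_exo replicate 3 or any PBS library (adjusted p 0.0506 to 0.174), Mturn without EKO_exo replicate 1, or without PBS replicate 1 or 2 (0.0895 to 0.158), Med29 without EKO_exo replicate 2, or without PBS replicate 1 or 2 (0.0547 to 0.0737) and L1cam without EKO_exo replicate 1 (0.0595). Among abundant genes with small p, Ccr7, the homing receptor for lymph nodes, was at 748, 753 and 725 CPM in PBS and 894, 895 and 924 CPM in EKO_exo (log2 0.29 ± 0.028, adjusted p = 1.64e-07). Irf8, an interferon regulatory factor, was at 551, 535 and 531 CPM in PBS and 636, 642 and 664 CPM in EKO_exo (0.27 ± 0.03, adjusted p = 1.66e-06). Nr4a3, an orphan nuclear receptor induced by T cell receptor signals, was at 845, 847 and 752 CPM in PBS and 979, 1009 and 1045 CPM in EKO_exo (0.31 ± 0.035, adjusted p = 2.08e-06). For these 3 abundant genes the groups did not overlap, which the rule that picked them required.

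The 10 largest falls under the same conditions ran from -0.71 to -1.08 and included Fads2 and Kif15, described above. Slc16a3, the lactate exporter MCT4 (chromosome 11, 120948480 to 120960868), was at 75.2, 81.7 and 72.0 CPM in PBS and 40.3, 43.6 and 47.8 CPM in EKO_exo (log2 -0.80 ± 0.072, adjusted p = 4.49e-08). Jag2, a Notch ligand, was at 18.9, 19.0 and 19.9 CPM in PBS and 10.0, 9.26 and 13.7 CPM in EKO_exo (-0.81 ± 0.14, adjusted p = 0.000522). Tgm2, a transglutaminase that crosslinks proteins, was at 23.1, 22.9 and 24.1 CPM in PBS and 10.1, 15.7 and 15.7 CPM in EKO_exo (-0.76 ± 0.13, adjusted p = 0.000517). The 3 genes separated the groups, as the rule that picked them required. EKO_exo replicate 1 was the lowest of its group for Slc16a3 and Tgm2. Ajuba, a LIM protein of cell contacts, went from 19.8 ± 1.27 to 11.7 ± 0.612 CPM (SD, n = 3 each; -0.76 ± 0.12, adjusted p = 0.000118), and Mastl, the Greatwall kinase of mitotic entry, from 14.7 ± 2.54 to 8.82 ± 0.591 CPM (-0.73 ± 0.14, 0.00147).

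Il21, a cytokine of follicular helper T cells that acts on B cells, was at 17.4, 16.1 and 22.5 CPM in PBS and 11.5, 11.9 and 10.7 CPM in EKO_exo (log2 -0.72 ± 0.16, adjusted p = 0.0053), and its call was lost without PBS replicate 3, the highest library (adjusted p = 0.06). Il2 was at 20.1, 22.7 and 24.6 CPM in PBS and 20.2, 26.0 and 21.0 CPM in EKO_exo (log2 -0.01 ± 0.11, adjusted p = 0.99) and Ifng at 4.01, 6.92 and 4.95 and 6.84, 6.28 and 7.37 CPM (0.37 ± 0.2, adjusted p = 0.359); for both the groups overlapped. Cenpw, a kinetochore protein, fell by 0.79 ± 0.2 (adjusted p = 0.0148; 0.0548 to 0.107 without EKO_exo replicate 3, or without PBS replicate 1 or 2). H2-DMb2, a chain of the class II peptide exchanger, was at 7.18, 5.42 and 8.32 CPM in PBS and 4.63, 4.61 and 1.69 CPM in EKO_exo (-0.94 ± 0.25, adjusted p = 0.0261; 0.0986 to 0.128 without EKO_exo replicate 3, or without PBS replicate 1 or 3), with replicate 3 far below the others.

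Some genes were at 0 counts in all 3 EKO_exo libraries, and these were chosen after their values were seen. Serpinf1, which encodes the secreted factor PEDF, had 18, 13 and 16 counts in PBS, 0 in each EKO_exo library and 1, 5 and 10 in WT_exo. Set against a floor of 3 counts over the EKO_exo group it was at least 14.9-fold lower than in PBS (adjusted p = 0.00617). The RNA gene Gm24644 had 18, 5 and 11 counts in PBS and 0 in EKO_exo, at least 10.8-fold lower (adjusted p = 0.0132). Over all genes, 1 had at least 10 counts in every PBS library and 0 in every EKO_exo library, and 0 the reverse. These calls rest on few counts, in libraries that hold fewer detected genes than PBS, and the part of that in the result was not tested.

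On the CPM scale the largest single differences were in abundant genes with small fold changes, picked after their values were seen. Beside Actb, at 368.5 CPM more in EKO_exo, B2m, the light chain of class I MHC, rose by 275 CPM (from 2017, 1938 and 1961 CPM in PBS to 2306, 2231 and 2203 CPM in EKO_exo). Nucleolin (Ncl) fell, with a difference of -363 CPM (log2 -0.14 ± 0.024), as did the chaperone Hsp90ab1 (-329.5 CPM, log2 -0.08 ± 0.020), the mitochondrial mt-Cytb (-309 CPM, log2 -0.10 ± 0.026) and Tubb5 (-295 CPM). Among genes named here, calls that ended without 1 library included Hsp90ab1 (EKO_exo 2, PBS 1 or 2; up to 0.0999) and mt-Cytb (EKO_exo 1 or 2, PBS 2; up to 0.106).

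Markers of other cell types were present and some were higher in EKO_exo. The 16 B cell markers summed to 609 to 655 CPM in PBS and 706 to 716 CPM in EKO_exo, mostly from Ighm, and Ighm (log2 0.16), Igkc (0.28) and Cd74 (0.18) were called higher. Of the 12 B cell markers tested, 8 had a fold change above 0 and 4 below. The 20 macrophage markers summed to 95.1 to 107 CPM in PBS and 111 to 125 CPM in EKO_exo. Among the 9 macrophage markers tested, 6 had a fold change above 0 and 3 below. C1qa and Cd163 were at 0 and 7 of the 20 had at most 3 counts in each of the 6 libraries, while Csf1r (0.880, 0.648 and 1.08 CPM in PBS and 2.39, 2.52 and 1.93 CPM in EKO_exo, adjusted p = 0.0476) and Ctss (log2 0.24) were called higher. Csf1r lost its call in 5 of the 6 fits without 1 library (adjusted p 0.0596 to 0.194). Removing 1 library also ended the calls of Ighm (PBS 1 or 3; up to 0.0619), Cd74 (EKO_exo 2 or 3, PBS 1, 2 or 3; up to 0.166), Ctss (EKO_exo 1, 2 or 3, PBS 1 or 2; up to 0.254) and Car2 (EKO_exo 1 or 2, PBS 1, 2 or 3; up to 0.119). Erythroid and platelet markers summed to 12.13 to 14.01 CPM in PBS and 8.25 to 11.6 CPM in EKO_exo, with 7 of 13 at 0, among them all 4 globin genes, and Car2 was called lower. Markers of CD8 T cells summed to 29.9 to 33.6 and 35.3 to 38.5 CPM, of natural killer cells to 8.36 to 10.6 and 10.9 to 11.5 CPM (Klra8 at 0), of neutrophils to 4.26 to 7.03 and 5.77 to 7.59 CPM (Ly6g at 0) and of dendritic cells to 14.5 to 16.7 and 15.2 to 16.4 CPM. Of the 6 CD8 T cell markers 3 had a fold change above 0 and 3 below. Eomes was called higher (mean 17.5 CPM in PBS and 23.8 CPM in EKO_exo). Its call ended without EKO_exo replicate 2 or PBS replicate 2 (adjusted p up to 0.132). Cd8a had a log2 fold change of -0.36, and Cd8b1 had 343, 300 and 338 counts in PBS and 282, 244 and 273 in EKO_exo. The T cell markers moved too, with Cd247, Cd3e and Cd5 called higher, although Cd3e lost its call in 5 of 6 fits without 1 library (adjusted p 0.0764 to 0.186). The part of these markers in the gene groups above was not tested.

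The direct test against the exosomes of wild-type macrophages is needed because PBS holds no vesicles, so a response to any macrophage exosome and one to the ApoE-deficient source cannot be told apart against PBS. Of 14684 genes, 5 (0.0341%) differed between EKO_exo and WT_exo in edgeR's quasi-likelihood test at an adjusted p under 0.05, and 1039 (7.08%) had an unadjusted p under 0.05; DESeq2 called 32. Of the 746 genes that differed from PBS, B2m and Igkc were among the 5. B2m was at 2006, 2092 and 2068 CPM in WT_exo, and the difference of EKO_exo from WT_exo was 0.13 (95% interval 0.08 to 0.18) (adjusted p = 0.0403). Igkc, the kappa light chain constant gene of B cells, was at 98.2, 111 and 105 CPM in PBS, 121, 127 and 133 CPM in EKO_exo and 92.8, 86.5 and 104 CPM in WT_exo (0.43 (95% interval 0.30 to 0.55), adjusted p = 0.00219). Its call against PBS was lost without PBS replicate 1 (adjusted p = 0.0569).

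The genes with large changes or small p against PBS differed from WT_exo by unequal amounts, and 0 of those below had an adjusted p under 0.05 in the direct test. The log2 difference of EKO_exo from WT_exo was 0.01 (95% interval -0.08 to 0.09) for Lad1, -0.01 (95% interval -0.11 to 0.08) for Top2a, -0.01 (95% interval -0.12 to 0.09) for Rrm2, 0.05 (95% interval -0.03 to 0.14) for Scd2 and -0.04 (95% interval -0.10 to 0.02) for Irf8. It was 0.07 (95% interval 0.0027 to 0.15) for Mki67, 0.15 (95% interval 0.04 to 0.27) for Klf2 and 0.09 (95% interval 0.03 to 0.16) for Bcl11b, whose intervals lie above 0 while their adjusted p was 0.686, 0.583 and 0.529. Among the largest changes it was -0.63 (95% interval -1.15 to -0.10) for H2-DMb2, 0.44 (95% interval 0.14 to 0.74) for Jag2, 0.36 (95% interval 0.11 to 0.62) for L1cam and 0.22 (95% interval 0.01 to 0.42) for Phlda1, with adjusted p of 0.639, 0.512, 0.522 and 0.683. Of the 27 gene lists none held a gene called between the exosome groups, and the medians of the replisome and mitotic lists were 0.02 and 0.03. The 2 comparisons with PBS share the PBS libraries, and WT_exo against PBS gave 730 calls (4.97%).

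**Figure D5:**
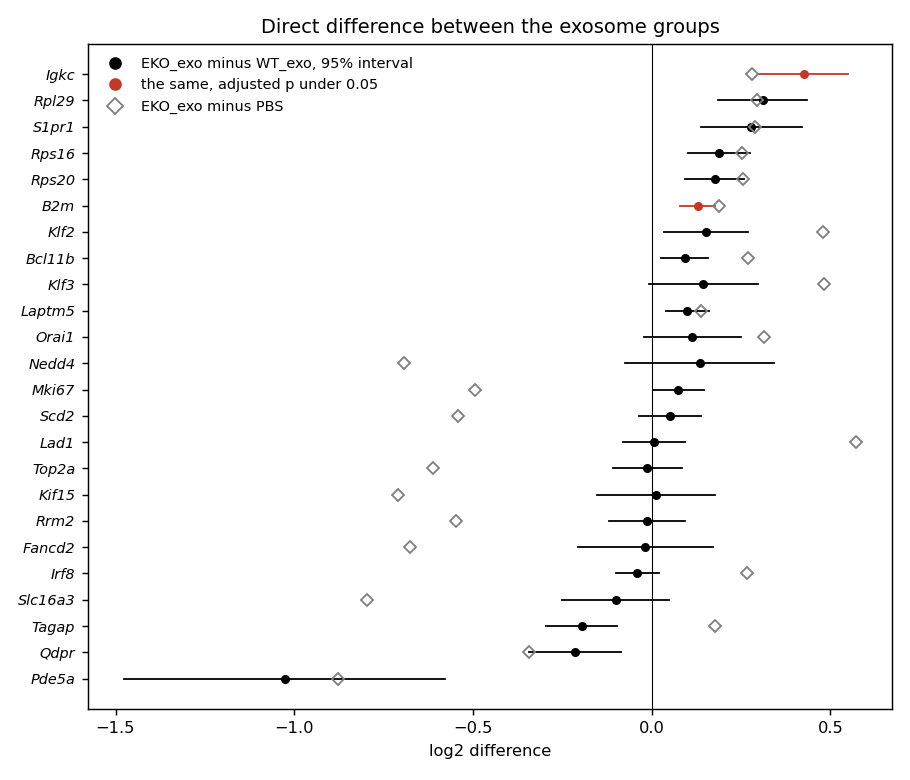
Log2 difference of EKO_exo from WT_exo (dots, with 95% intervals not adjusted for the number of genes) and of EKO_exo from PBS (diamonds) for 24 genes; both share the EKO_exo libraries. The interval for Lad1 lies around 0 while its diamond is at 0.57, and red marks the 2 genes with an adjusted p under 0.05, Igkc and B2m.

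Beside B2m and Igkc, other genes called against PBS that the naming rule picked for a small p in the direct test did not reach the threshold. Pde5a, a phosphodiesterase of cyclic GMP, was at 4.58, 4.91 and 4.49 CPM in PBS, 2.60, 2.40 and 2.59 CPM in EKO_exo and 4.50, 4.79 and 6.19 CPM in WT_exo, so EKO_exo stood alone below the other groups (EKO_exo minus WT_exo -1.03 (95% interval -1.48 to -0.58), adjusted p = 0.125). Its call against PBS was lost without PBS replicate 2 (adjusted p = 0.0703). S1pr1, which the rule picked for its small p against PBS, was at 55.7, 67.4 and 61.8 CPM in WT_exo (0.28 (95% interval 0.14 to 0.42), adjusted p = 0.243). For S1pr1 the EKO_exo libraries lay above all 6 others. Qdpr, a recycler of tetrahydrobiopterin, was at 67.3, 67.2 and 64.6 CPM in PBS, 52.8, 51.1 and 52.9 CPM in EKO_exo and 61.8, 62.1 and 58.1 CPM in WT_exo (-0.22 (95% interval -0.34 to -0.09), adjusted p = 0.426). Tagap, a GTPase activator of T cells, was at 122, 121 and 129 CPM in PBS, 134, 147 and 140.3 CPM in EKO_exo and 169, 152 and 162 CPM in WT_exo (-0.20 (95% interval -0.30 to -0.10), adjusted p = 0.245), and its call against PBS was lost without EKO_exo replicate 2 or 3, or without PBS replicate 1 or 2 (adjusted p 0.0649 to 0.167).

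The ribosomal protein genes Rps16, Rps20 and Rpl29 were higher in EKO_exo than in PBS (log2 0.25 ± 0.042, 0.26 ± 0.04 and 0.29 ± 0.061), and their differences from WT_exo were 0.19 (95% interval 0.10 to 0.28), 0.18 (95% interval 0.09 to 0.26) and 0.31 (95% interval 0.19 to 0.44) (adjusted p = 0.196, 0.196 and 0.0543). Such genes have many processed copies in the genome, among which the authors' counting could split reads. The noncoding Gm24644 and Gm26847, named by the same rule, were under 1 CPM in every library and lost their calls against PBS without single libraries (adjusted p up to 0.103 and 0.13).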

How the data were processed

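RNA of activated mouse CD4+ T cells was sequenced from 9 cultures. Extraction used the RNeasy Mini kit (Qiagen), and the Universal Plus mRNA-Seq kit served for the libraries, per the labels' protocols. The authors deposited whole-number read counts per gene, not normalized. Reads were aligned with STAR 2.7.5c to GRCm38, per the submitters' processing notes. How reads were counted, with which annotation and strand setting, is not given in the sources used here, so overlapping, antisense and near-identical genes may share reads. Symbols and coordinates came from GENCODE M21, which held all 55536 gene IDs of the table, and promoter sequences from RefSeq (GRCm38.p6).

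Genes were filtered with filterByExpr (minimum count 10, minimum total 15), which kept 14684 genes and at least 99.92% of the counts of each library. TMM factors, a fit of the 3 groups over all 9 libraries and the two-sided quasi-likelihood F test of edgeR 4.0.16 (R 4.3.3, limma 3.58.1) gave log2 fold changes and p-values. The test used 6 residual degrees of freedom and prior ones with a median of 21.1. The p-values were adjusted by Benjamini and Hochberg over all genes tested. SE and 95% intervals are not outputs of this test and were derived from its results. A gene was called at an adjusted p under 0.05. DESeq2 1.42.0 was an alternative. Levels are CPM scaled by TMM, not divided by gene length, so levels of different genes are not compared. The 6 libraries held 25792975 to 30464334 counts, and the precision this gives is the SE of each fold change. Replicates differed by more than counting noise, so no library was a copy of another. The steps were tested on simulated data. Figures were drawn with matplotlib 3.10.9.

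Groups came from the treatment labels. The members and the 35 gene and marker lists were chosen with earlier results of these data known. Genes were named by a rule: among the called genes that averaged 5 CPM or more, had groups without overlap and carry an established symbol, the 10 largest changes and 5 smallest p in each direction; from each list with 3 or more called members, the 3 of smallest p; Apoe, Cd4, Cd3e, Cd8a, Csf1r, Il2, Ifng and Mki67; and, among genes called against PBS, the 5 with the smallest p in each direction against WT_exo. Some genes that this rule picks are not reported here. Other genes named were chosen after their values were seen. Other normalizations, filters, a replicate term and left-out libraries were tried as alternatives. List symbols with no match in the table (9) were left out.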

Additional observations from a re-analysis of the deposited data

Results flagged for a closer look

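The 5 genes that differed between T cells given exosomes of ApoE-deficient macrophages and T cells given exosomes of wild-type macrophages are listed because the effect of exosomes against PBS differed between the 2 sources in edgeR's quasi-likelihood test of the difference itself. For Igkc the difference of EKO_exo from WT_exo was 0.43 on the log2 scale (adjusted p = 0.00219). For Ighg2c, an immunoglobulin heavy chain gene, it was 1.19 (adjusted p = 0.0207), with 8.30, 10.1 and 9.63 CPM in EKO_exo, 4.53, 4.79 and 2.94 CPM in WT_exo and 5.71, 10.7 and 10.5 CPM in PBS, so WT_exo lay below the other groups. For mt-Nd4, a mitochondrial subunit of complex I, it was 0.20 (adjusted p = 0.0207), with 764, 801 and 809 CPM in EKO_exo and 712, 704 and 655 CPM in WT_exo.

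For Tpt1, a translationally controlled protein, the difference was -0.16 (adjusted p = 0.0207), with 1142, 1124 and 1111 CPM in EKO_exo and 1239, 1219 and 1327 CPM in WT_exo. For B2m it was 0.13 (adjusted p = 0.0403). Each of the 5 lost its call when some single library was left out: the adjusted p reached 0.352 for Tpt1, mt-Nd4 and Ighg2c without WT_exo replicate 3, 0.407 for B2m without WT_exo replicate 1 and 0.06 for Igkc without WT_exo replicate 2. B cell markers summed to 706 to 716 CPM in EKO_exo and 612 to 670.5 CPM in WT_exo, and the part of such cells in the immunoglobulin genes was not tested.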

How the results depend on the processing

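Of the 746 genes called against PBS, 0 had a fold change of the other sign under any alternative that gave a value. Of the 746 genes called against PBS, 730 were also called with DESeq2 size factors in edgeR (751 called), 733 with DESeq2's Wald test (1097 called, 538 of them higher), 704 with no filter beyond 1 count (830), 720 among genes that averaged 5 CPM or more (1003), 745 without genes with a lone zero (766) and 597 in a fit of the 6 libraries alone (602). Without EKO_exo replicates 1 and 3 together 249 were called (84 higher, 165 lower), of which 215 were shared with the 746. In the same fit the members called were 16 for the replisome, 14 for the spindle, 4 for nucleotide synthesis, 5 for recombination and 4 for factors of resting T cells. With 1 library left out, the lowest and highest counts were 148 and 293 genes higher, 227 and 400 lower, 23 and 32 replisome, 22 and 35 spindle, 5 and 11 nucleotide, 9 and 18 recombination and 6 and 12 resting T cell genes. Fewer libraries were fitted in each of these, and other causes were not tested. Of 89 called genes named by the rule, 33 lost their call without some single library and 41 without EKO_exo replicates 1 and 3.

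The labels do not say whether equal replicate numbers pair the samples. The correlation of deviations between same-numbered EKO_exo and PBS libraries was -0.0198, 0.00723 and -7.74e-05. These values gave no sign of pairing, but with 3 libraries per group they cannot exclude it. With the replicate block 614 genes were called against PBS, 606 of them shared. The 5 calls between EKO_exo and WT_exo became 1 with the replicate block, 32 with DESeq2, 28 with no filter beyond 1 count, 9 among genes that averaged 5 CPM or more, 0 without EKO_exo replicates 1 and 3, and 0 to 6 with 1 library left out; these alternatives were chosen after seeing the data, and the cause was not tested. Depth limits rare genes, since under 1 CPM the median SE was 0.757.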
